A study of Rattus norvegicus with 6 samples.

Results

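Hepatokines are hormones and growth factors that the liver secretes, and 10 of their genes were followed in cultured rat hepatocytes exposed to trimethylamine N-oxide (TMAO): the activin subunits Inhbe, Inhba, Inhbb and Inhbc, the activin-binding protein Fst, and Fgf21, Gdf15, Angptl4, Ahsg and Lect2. From group means of log2 signals, Fgf21 in the TMAO cultures was at 3.52-fold and Inhbe at 1.91-fold the level of the untreated cultures. For these 2 genes every TMAO array lay above every Control array. The other 8 genes had group means, taken in the same way, within 1.13-fold of each other, and their groups overlapped. None of the 10 passed the adjusted threshold over all 15037 genes measured. The 10 genes were chosen by symbol from earlier results of the same contrast, and each was read from the probe set with the highest mean signal over all 6 arrays, so their differences are a description. Each of the 10 had 1 annotated probe set, so all 10 were measured and that step left no choice.

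The study exposed primary hepatocytes of 8-week-old male Sprague-Dawley rats, plated on collagen in serum-containing medium, to 50 µM TMAO for 30 h (n = 3) or left them untreated as Control (n = 3). TMAO is the oxidised form of trimethylamine, a product of gut bacteria that liver enzymes convert. RNA was measured on 6 Affymetrix arrays, 1 per culture, and values are log2 signals, on which a difference of 1 is a doubling. The samples are labelled biological repeats, no source used here says whether they came from separate animals, so the p-values rest on the spread among these arrays alone. In RNA from whole cultures, fewer cells of a type and less RNA per cell cannot be told apart.

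Activins are dimers of inhibin beta subunits, members of the transforming growth factor beta (TGF-beta) family. They bind activin receptors, which phosphorylate Smad2 and Smad3, and follistatin, the product of Fst, binds activins and neutralises them. Inhbe and Inhbc are expressed mainly in the liver. FGF21 and GDF15 are stress-induced hormones that alter fuel use and food intake, and both genes are known targets of the transcription factors ATF4 and CHOP of the integrated stress response. ANGPTL4 inhibits lipoprotein lipase, fetuin-A (Ahsg) is an abundant plasma glycoprotein that inhibits the insulin receptor, and LECT2 is a chemotactic factor secreted by hepatocytes.

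The median signals of the 6 arrays were 5.53 to 5.61, and correlations between arrays across genes, which are not independent replicates, were 0.985 to 0.993. TMAO replicate 3 stood apart on the first principal component, with a coordinate of 27.59 against -13.35 to -1.48 for the other arrays, and it had the highest mean of the hybridisation control probe sets (9.59 against 9.04 to 9.38). Inhbe and Fgf21 are therefore given with and without it. Of 14 measured hepatocyte markers, all had means 1 log2 unit or more over the median of 23 background probe sets (3.48). The means of these background probe sets, which the file names by GC content, ran from 2.19 to 7.27, so a signal over their median is not shown to be above background for every base composition, and this holds for the Control means of Inhbe, Fgf21, Inhbc, Gdf15 and Angptl4. Alb, which encodes albumin, had 11.82 to 11.97 over the 6 arrays. Cps1 of the urea cycle (4.67 to 5.49) lay below the median signal of every array.

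**Figure D1:**
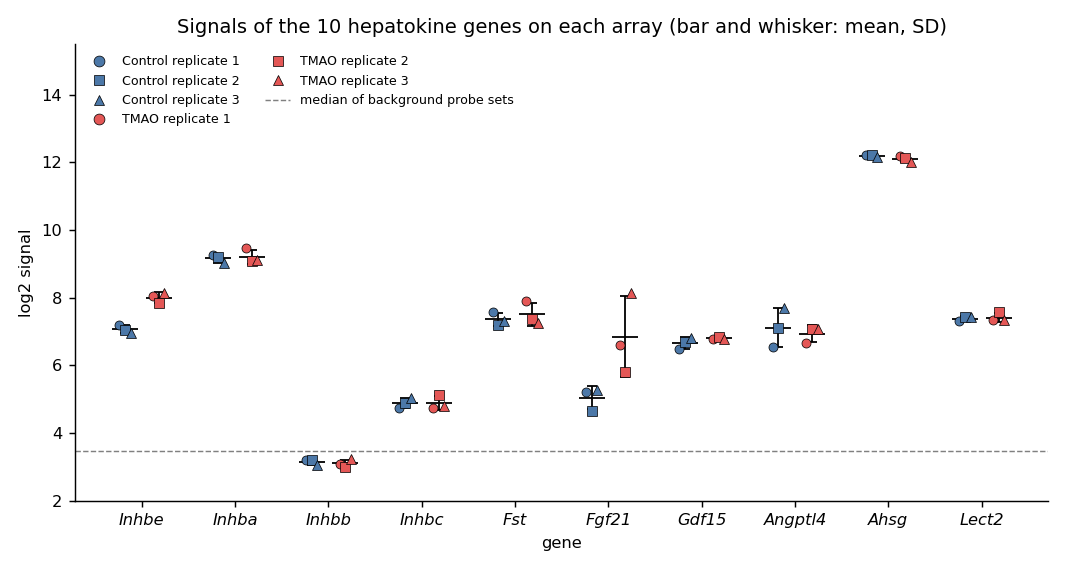
Log2 signal of each of the 10 genes on each array, with Control in blue, TMAO in red and a marker shape for each replicate number. Horizontal bars are group means, whiskers are SD (n = 3), and the dashed line is the median of the background probe sets at 3.48. Inhbe and Fgf21 are the genes whose groups are separate, and Inhbb lies below the dashed line.

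Inhbe (probe set TC0700002919.rn.2) encodes the beta E subunit of activin, which hepatocytes secrete. Its log2 signals were 7.20, 7.04 and 6.97 on Control replicates 1, 2 and 3, and 8.04, 7.84 and 8.14 on TMAO replicates 1, 2 and 3. Both groups were tight, and the lowest TMAO array stood above the highest Control array. The group means were 7.07 ± 0.12 and 8.01 ± 0.16 (SD, n = 3), a difference of 0.93 ± 0.13 (SE) with a 95% interval of 0.65 to 1.22. In the limma fit of all genes the adjusted p was 0.102, and in 4 of 8 other settings of the same arrays it was under the threshold, between 0.0094 and 0.0494. Without TMAO replicate 3 the difference was 0.87. Ranked by difference among the 15037 genes, Inhbe was number 29 from the top.

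Fgf21 (TC0100005400.rn.2) encodes fibroblast growth factor 21, a hormone of the fasting and stressed liver. Its log2 signals were 5.20, 4.65 and 5.27 on the Control arrays, and 6.60, 5.82 and 8.15 on TMAO replicates 1, 2 and 3. All TMAO arrays were above all Control arrays, but they were far apart from each other. Against the Control mean, the 3 TMAO arrays were 2.95-fold, 1.72-fold and 8.61-fold higher. The group means were 5.04 ± 0.34 and 6.86 ± 1.18 (SD, n = 3), a difference of 1.82 ± 0.48 (SE) with a 95% interval of 0.73 to 2.90, number 2 of all genes from the top. With this spread the adjusted p in the limma fit was 0.581, although the difference was larger than that of Inhbe. Without TMAO replicate 3 the difference was 1.17.

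Counted over the members, 2 of 10 had separate groups with TMAO higher, where 5.51% of all genes did, and 0 of 10 had separate groups with TMAO lower, where 5.33% of all genes did. The same 2 differed at least 1.5-fold upward at an unadjusted p under 0.05, as did 0.579% of all genes. 0 of 10 passed an adjusted p of 0.05, against 0.0266% of all genes, which is 4 genes. Because the members were picked with this contrast known, these counts are printed beside the background and nothing is read from them.

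The other activin subunits differed little between the groups. Inhbc lies next to Inhbe on chromosome 7, on the same strand, with 4930 bases between the 2 genes in the rat assembly GRCr8. Its signals were 4.74, 4.89 and 5.05 in Control and 4.74, 5.12 and 4.79 under TMAO. The groups overlapped fully, and the difference was -0.01 ± 0.14 (SE) with a 95% interval of -0.33 to 0.31. Inhba, the beta A subunit of activin A, had 9.28, 9.20 and 9.02 in Control and 9.46, 9.08 and 9.10 under TMAO. Its difference was 0.05 ± 0.14 (SE), with an interval of -0.26 to 0.36. Inhbb, the beta B subunit, had signals of 2.99 to 3.22 on all 6 arrays, below the background median, so its difference (-0.04) does not measure a level.

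Fst, whose product neutralises activins, had 7.58, 7.19 and 7.33 in Control and 7.89, 7.37 and 7.27 under TMAO. The highest value of each group came from the array numbered 1, and the groups overlapped. The difference was 0.15 ± 0.18 (SE) with an interval of -0.26 to 0.55, and without TMAO replicate 1 its sign turned, to -0.04.

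Gdf15, a stress hormone of the TGF-beta family, did not share the separation seen for Fgf21. Its signals were 6.48, 6.69 and 6.82 in Control and 6.77, 6.84 and 6.80 under TMAO. The TMAO arrays lay close together, at the upper end of the Control range, and 1 Control array was above the lowest TMAO array. The difference was 0.14 ± 0.12 (SE), with an interval of -0.13 to 0.41.

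Angptl4, the lipase inhibitor, had the widest Control spread of the 10 genes (SD of 0.57, n = 3). Its signals were 6.56, 7.10 and 7.69 in Control and 6.66, 7.07 and 7.08 under TMAO. The lowest value of each group was on the array numbered 1. The difference was -0.18 ± 0.26 (SE), with an interval of -0.75 to 0.40, and without Control replicate 3 its sign turned, to 0.11. Ahsg, which encodes fetuin-A, had 12.23, 12.20 and 12.16 in Control and 12.19, 12.14 and 12.00 under TMAO. The groups overlapped, with TMAO replicate 3 the lowest array, and the difference was -0.09 ± 0.11 (SE) with an interval of -0.33 to 0.16. Lect2 had 7.31 to 7.43 in Control and 7.33 to 7.58 under TMAO, and its difference was 0.03 ± 0.12 (SE), with an interval of -0.24 to 0.29.

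**Figure D2:**
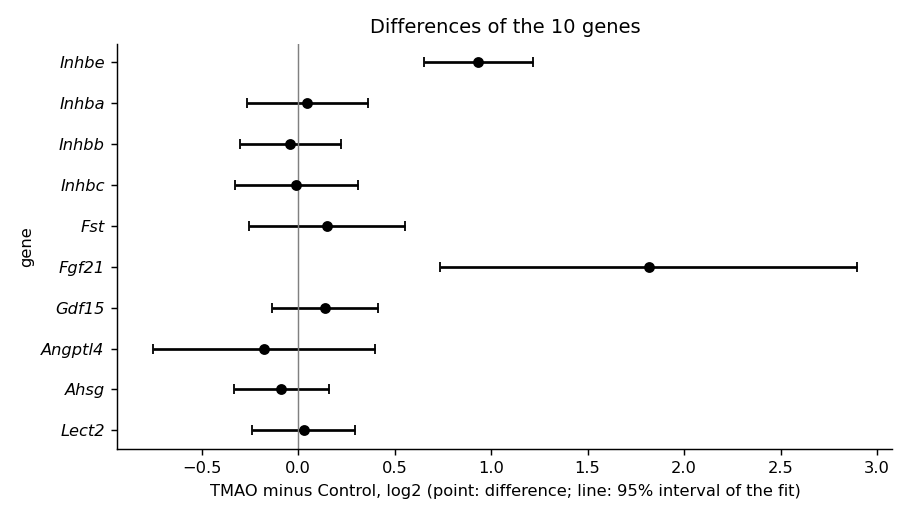
Difference of TMAO minus Control on the log2 scale for each of the 10 genes (points) with the 95% interval of the limma fit (lines). The intervals of Inhbe (0.65 to 1.22) and Fgf21 (0.73 to 2.90) lie above 0, and those of the other 8 genes include 0.

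Fgf21 and Inhbe carried a common pattern over the 6 arrays, with a Pearson correlation of 0.87, given as a description because the 6 values share arrays and groups. On both, TMAO replicate 3 was highest, then replicate 1, then replicate 2. Of all genes 18.9% had this order of the TMAO arrays, and of the members 3 of 10, the other being Inhbb, which lay below the background median. The order was read from Fgf21 and Inhbe themselves, so both have it by definition and the count of members is no evidence of a shared pattern. In the list of 22 stress regulators and targets, made with its upward direction in these arrays known, 11 had this order. Among them was Ddit3, which encodes CHOP. Ddit3 had 6.82, 6.70 and 7.02 in Control and 8.39, 8.13 and 9.30 under TMAO, and correlated with Fgf21 by 0.96 and with Inhbe by 0.95. The correlation of Gdf15 with Ddit3 was 0.55. TMAO replicate 3 is also the array that stood apart, and its part in this order was not tested.

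The genes with patterns most like each hormone were taken as the 3 highest Pearson correlations over the 6 arrays among 11277 other genes, the dimmest 25% of genes being left out. For Fgf21 they were Sema3c, a secreted guidance protein, with 0.998, Mapk6, an atypical kinase, with 0.995, and Igfbp1, the secreted binding protein of insulin-like growth factors, with 0.995. Igfbp1 had 7.59, 7.37 and 7.81 in Control and 9.09, 8.15 and 10.30 under TMAO, so its TMAO arrays were spread in the same order as those of Fgf21. For Inhbe they were Elmod1 (0.993), Sgk1, a kinase induced by serum and glucocorticoids (0.992), and Herpud1, which acts in degradation of proteins from the endoplasmic reticulum (ER) (0.989). For Gdf15 they were Idh3b, Ctnnd2 and Bcan, each with 0.981. Correlations of this height were thus also found for Gdf15, whose group means differed by 0.14.

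**Figure D3:**
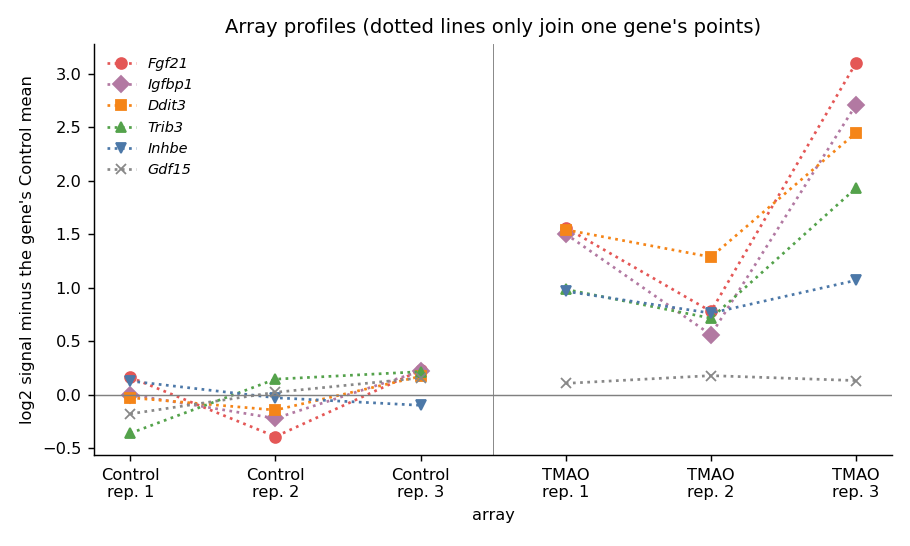
Log2 signal minus the gene's Control mean (vertical axis) on each of the 6 arrays (horizontal axis) for Fgf21, Igfbp1, Ddit3, Trib3, Inhbe and Gdf15, with dotted lines that only join the points of a gene. On the TMAO arrays Fgf21 and Igfbp1 spread most, Inhbe stays near 1, and Gdf15 lies close to 0.

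The 250 bases before the start sites of Inhbe, Fgf21 and Inhbc are shown because the groups were separate for Inhbe and Fgf21 and overlapped for Inhbc, the neighbour of Inhbe. None of the 3 passed the adjusted threshold, and no difference between these genes was tested. The sequences are from RefSeq, assembly GRCr8, on the strand of each gene (minus), from chr7:65064520-65064769, chr1:105221377-105221626 and chr7:65082920-65083169. Capitals mark matches to the core of the C/EBP-ATF response element, the site bound by ATF4 and its partners.
Inhbe: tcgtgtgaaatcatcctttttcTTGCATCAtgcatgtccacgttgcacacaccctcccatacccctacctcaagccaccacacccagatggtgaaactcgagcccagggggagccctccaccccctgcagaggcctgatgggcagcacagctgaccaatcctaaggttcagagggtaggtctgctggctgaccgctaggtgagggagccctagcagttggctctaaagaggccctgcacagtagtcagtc
Fgf21: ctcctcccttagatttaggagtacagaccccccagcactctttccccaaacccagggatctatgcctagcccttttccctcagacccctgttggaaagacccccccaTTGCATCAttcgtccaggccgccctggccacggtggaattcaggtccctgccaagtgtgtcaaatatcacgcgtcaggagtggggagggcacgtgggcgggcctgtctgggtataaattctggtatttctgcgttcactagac
Inhbc: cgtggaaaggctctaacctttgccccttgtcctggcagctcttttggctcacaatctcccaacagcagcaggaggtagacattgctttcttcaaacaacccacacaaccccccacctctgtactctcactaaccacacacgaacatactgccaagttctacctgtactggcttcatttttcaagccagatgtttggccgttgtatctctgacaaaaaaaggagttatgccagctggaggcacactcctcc

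The core was searched as TGATGNAA on both strands, in windows of 250 bases before and 50 after each listed start site, and no other motif searched overlapped these matches. Of the 10 members 9 had a window in the table, and 2 of the 9 held the core, Inhbe and Fgf21. In both the match lay on the opposite strand and read TGATGCAA there, with its first base 228 bases before the start of Inhbe and 143 before that of Fgf21. Of all 33469 windows of this length 3.98% held the core, and of the 12924 windows of measured genes 2.98%. Of 19 stress genes with a window, 4 held it: Chac1, a glutathione-degrading enzyme, Herpud1, Nupr1, a stress-induced nuclear protein, and Trib3, a pseudokinase induced by CHOP. A match is a stretch of letters and not a measured site. The matches are set side by side with 10 bases on each side.
Inhbe: atcctttttcTTGCATCAtgcatgtcca
Fgf21: gacccccccaTTGCATCAttcgtccagg
Chac1: ttctccgccgTTGCATCActcctgctag
Herpud1: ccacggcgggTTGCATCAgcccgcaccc
Nupr1: aaaggccagaTTGCATCAgacagggctt
Trib3: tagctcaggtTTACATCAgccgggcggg

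These stress genes had log2 differences of 1.80 ± 0.19 (SE) for Herpud1, which passed the limma fit with an adjusted p of 0.0373, and of 1.02 ± 0.21 for Chac1, 1.21 ± 0.29 for Trib3 and 0.38 ± 0.17 for Nupr1, which did not pass. The unfolded protein response element TGACGTGG was in 0 of the 9 windows (0.595% of all windows, 0.735% of those of measured genes). The cAMP response element TGACGTCA was in 0 (1.83% and 2.55%). An E-box, CACGTG, which ChREBP and other basic helix-loop-helix factors can bind, was in the Fgf21 window, 54 bases before the start. It was in 6.42% of all windows and 7.83% of those of measured genes. Both strands were searched for each. For Gdf15, 2 listed starts were searched, and for Inhba and Angptl4 the listed start lies inside the annotated gene.

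**Figure D4:**
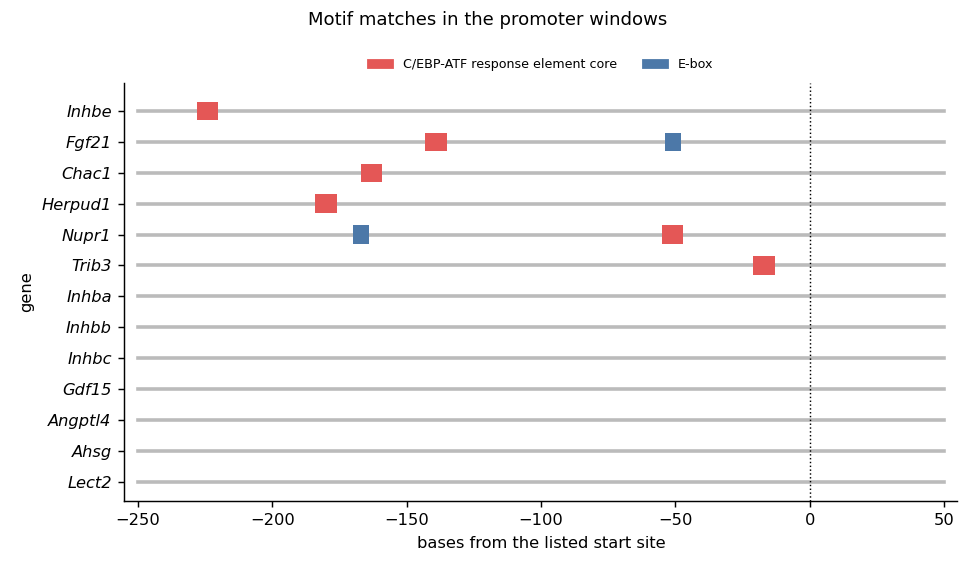
Positions of the C/EBP-ATF response element core (red) and the E-box (blue) in bases from the listed start site (dotted line at 0), for 4 stress genes and the 9 members with a window. The grey line is the searched window, and both windows of Gdf15 are drawn as 1 line. Of the members only Inhbe and Fgf21 carry the core in this window.

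The other genes of activin signalling gave no call in either direction. Of 11 measured receptors of activins and bone morphogenetic proteins, 0 passed and the median difference was 0.08, where the median of all genes was -0.0035. The activin receptors Acvr2a and Acvr2b differed by 0.09 ± 0.16 (SE) and 0.12 ± 0.16, and their partners Acvr1b and Acvr1c by 0.17 ± 0.15 and 0.20 ± 0.15. Of 10 binding proteins and inhibitors 0 passed, with a median of -0.04. Fstl3, a relative of follistatin that also binds activins, differed by -0.09 ± 0.16. Of 16 Smads and target genes 0 passed, with a median of 0.0017. Smad7, the inhibitory Smad that TGF-beta family signals induce, had the largest difference of these, with 5.45, 5.58 and 4.91 in Control and 4.57, 5.19 and 4.76 under TMAO (-0.47 ± 0.21, adjusted p of 0.909 in the limma fit). Its groups overlapped.

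Among 13 other ligands and the convertases that cleave their precursors, 0 passed, with a median of -0.03. Separate groups were found for 2 of the 13 with TMAO higher and for 3 with TMAO lower. Of all genes 5.51% and 5.33% had them. Furin, which cleaves activin precursors, had 9.22, 9.22 and 9.29 in Control and 9.05, 8.98 and 8.95 under TMAO. These groups were separate, with a difference of -0.25 ± 0.11 (SE). Pcsk5, another convertase, had separate groups in the other direction, with a difference of 0.36 ± 0.14. Bmp2, an activator of Smad1 and Smad5, had 7.24, 7.23 and 6.97 in Control and 7.57, 7.28 and 8.25 under TMAO, again highest on TMAO replicate 3, and differed by 0.55 ± 0.22. The groups of Bmp2 were separate too, with TMAO higher. Furin, Pcsk5 and Bmp2 each had an adjusted p of 0.909 in the limma fit.

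Of 15 measured receptors and regulators of FGF21 and GDF15, 0 passed, with a median of -0.12. Lower means under TMAO were found for 11 of the 15, where 51.0% of all genes had them. Separate groups with TMAO lower were found for 4, where 5.33% of all genes had them, and with TMAO higher for 0. Fgfr1, a receptor for FGF21, had 6.32, 6.65 and 6.04 in Control and 5.98, 6.02 and 5.71 under TMAO, a difference of -0.43 ± 0.17 (SE). Mlxipl, which encodes the glucose-sensing factor ChREBP, had 6.83, 6.80 and 6.63 in Control and 6.47, 6.46 and 6.32 under TMAO, a difference of -0.34 ± 0.11. Both were among the 4 with separate groups, and neither passed (adjusted p of 0.902 and 0.856 in the limma fit). Ppara and Creb3l3, factors that induce Fgf21 in fasting, had -0.16 ± 0.19 and 0.02 ± 0.16, and their groups overlapped. Gfral, the brain receptor of GDF15, had 3.39 to 3.67 over the 6 arrays, near the background median.

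Of 12 genes around ANGPTL4, 0 passed, with a median of 0.02. Angptl8, an insulin-induced relative, differed by 0.34 ± 0.21 (SE), and Cpt1a, the gateway of mitochondrial fatty acid oxidation, by -0.35 ± 0.14. Plin2, a lipid droplet protein induced like Angptl4 by peroxisome proliferator-activated receptors, differed by 0.18 ± 0.15. Of 8 partners and relatives of LECT2 and fetuin-A 0 passed. Fetub, the paralog of Ahsg, differed by -0.15 ± 0.11, and Insr, the receptor that fetuin-A inhibits, by 0.05 ± 0.11. Of 24 other liver-secreted factors 0 passed, with a median of -0.0030, and Igfbp1 had the largest difference of them, 1.59 ± 0.43 with an adjusted p of 0.619.

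In contrast to these lists, all 22 stress regulators and targets had higher means under TMAO, with a median of 0.73. Herpud1, Vldlr and Hspa5 passed, all upward. This direction was known when the list was made and is no independent evidence. Atf4 had 10.00, 9.93 and 9.93 in Control and 10.39, 10.11 and 10.38 under TMAO, a difference of 0.34 ± 0.12 (SE).

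**Figure D5:**
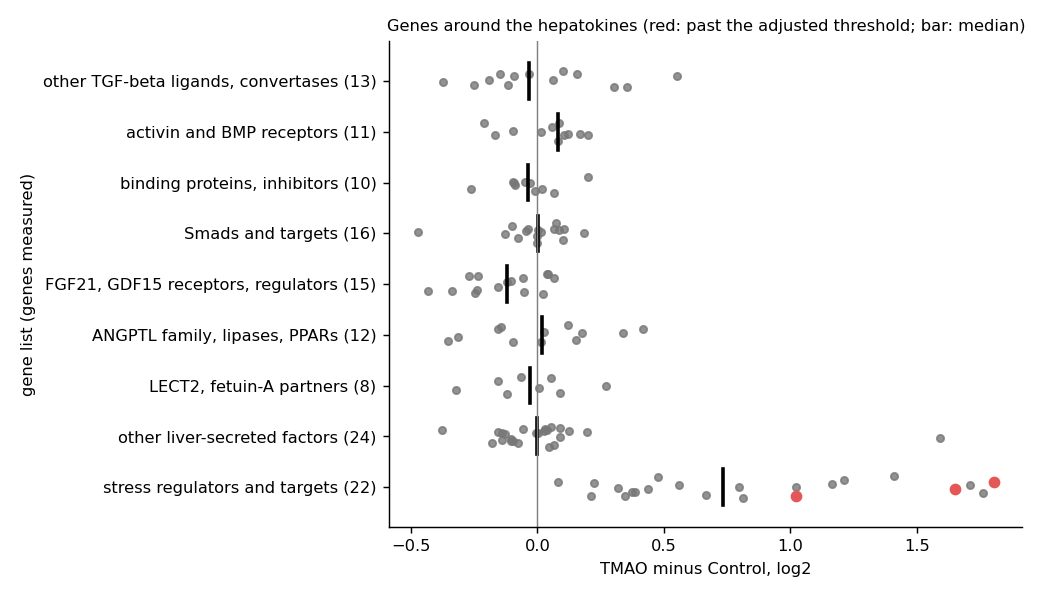
Log2 difference of TMAO minus Control for each measured gene of 9 lists around the hepatokines (points), with list medians as black bars and genes past the adjusted threshold in red. The stress list is shifted upward (median 0.73) with 3 red points, the medians of the other 8 lists lie between -0.12 and 0.08, and the outlying point among other liver-secreted factors is Igfbp1.

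Activin A and follistatin are also made by non-parenchymal liver cells, so their markers were read beside them. The mean log2 level of 12 macrophage markers was 5.23 to 5.49 on the Control arrays and 5.12 to 5.26 on the TMAO arrays, and 10 of 12 had lower means under TMAO, as did 51.0% of all genes and 11 of 14 hepatocyte markers. That of 14 stellate cell and fibroblast markers was 5.95 to 6.03 in Control and 5.72 to 5.99 under TMAO, with 10 of 14 lower. That of 8 endothelial markers was 4.11 to 4.42 and 4.13 to 4.21, with 6 of 8 lower, and that of 5 cholangiocyte markers 5.004 to 5.20 and 4.90 to 5.36, with 1 of 5 lower. 0 genes of these 4 lists passed. Of these markers 6 of 12, 9 of 14, 4 of 8 and 4 of 5 had means 1 log2 unit or more over the background median. The Kupffer cell markers Clec4f and Adgre1 had means of 3.20 to 3.55 in the groups, near it. Some other macrophage markers were brighter, with Control and TMAO means of 7.62 and 7.49 for C1qa and 8.37 and 8.26 for Cd14. Csf1r, Vsig4, C1qb and Ptprc had means less than 1 log2 unit over the background median. Control and TMAO means were 4.48 and 4.22 for C1qb and 3.52 and 3.58 for Ptprc. Of the 12, 1 had separate groups with TMAO lower, Cd163 (5.25 and 4.87), where 5.33% of all genes did. Stellate cell and fibroblast markers ran from Lum, with Control and TMAO means of 2.73 and 2.77, to Tagln, with 11.67 and 11.63. The part of these cell types in the signals of Inhba and Fst was not tested.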

How the data were processed

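RNA of 6 cultures was measured on Affymetrix arrays from biotin-labelled cRNA, per the labels' protocols. The authors deposited log2 signals per probe set. For their background correction, normalization and probe summary, no method is given in the sources used here, and limma appears without a role or version in the submitters' processing notes. A further 6 columns numbered without sample labels were not used.

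Of 24871 probe sets 1683 were controls, and 15049 of the others had 1 gene symbol in the platform annotation, 0 several and 8139 none. All 15049 gene IDs matched RefSeq (GRCr8). The brightest probe set stood for each of 15037 genes. Groups and replicate numbers came from sample titles. Fold values between groups were taken from differences of mean log2 signals. TMAO was compared with Control by limma 3.58.1 in R 4.3.3 (lmFit and eBayes, group as the only term, two-sided, Benjamini-Hochberg over all genes, threshold 0.05). The number of arrays limits the precision. The fit was tested on simulated data.

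Members, gene lists and motifs were chosen with earlier results of these data known. Genes named are the 10 members, list genes by role, and the 3 most correlated genes of Inhbe, Fgf21 and Gdf15. List entries without a named probe set were not analysed here. Alternatives covered normalization, dim genes, probe sets, array weights, the variance model, a replicate block and leaving out each array.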

Additional observations from a re-analysis of the deposited data

How the results depend on the processing

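The call of Inhbe depended on the setting, while its difference stayed between 0.87 and 1.02. Inhbe has 1 probe set and the groups are of equal size. The settings on dim genes, probe sets, the variance model and the replicate block therefore could not move the difference. Only normalization, array weights and leaving out arrays could change that of Inhbe. Its adjusted p was 0.102 as reported, 0.0494 with quantile normalization of all probe sets, 0.0379 with the dimmer 50% of genes left out, 0.0442 with array weights and 0.0094 with a robust trend in the variance model, and in these 4 settings 1 member passed, Inhbe. Median centring (0.0845), the mean of probe sets (0.102), every probe set on its own (0.154) and the replicate block (0.313) left 0 members past. With 1 array left out its difference was 0.87 to 1.02 with adjusted p of 0.130 to 0.502, and 0 members passed. That of Fgf21 ran from 1.17 without TMAO replicate 3 to 2.33 without TMAO replicate 2, and it passed in no setting (adjusted p of 0.25 to 0.999). The 4 genes past the threshold became 9 without the dimmer genes, 7 with array weights, 30 with the robust trend, and 0 with every probe set or with the block. They became 0 to 2 with 1 array left out, 2 without TMAO replicate 1 and 0 without each other array. The 3 list genes past the threshold became 7 with the robust trend, 0 with every probe set or with the block, and 0 to 1 with 1 array left out.

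The sign of Inhbc turned with quantile normalization (0.0015), median centring (0.0051) and array weights (0.046). With 1 array left out, differences ran from -0.13 to 0.067 for Inhbc, -0.074 to 0.11 for Inhba, -0.099 to 0.015 for Inhbb, -0.043 to 0.27 for Fst, -0.46 to 0.11 for Angptl4 and -0.056 to 0.070 for Lect2. Gdf15 (0.05 to 0.22) and Ahsg (-0.13 to -0.03) kept their sign. No normalization moved the median of all genes by more than 0.02. Equal replicate numbers are not stated to share an animal. The deviations of equally numbered arrays correlated by 0.13, 0.098 and -0.01 for numbers 1, 2 and 3. The limit set for each pair was 0.1, and only number 1 passed it. Among the arrays of the other group, those numbered 1 and 2 were most like the array of equal number, and those numbered 3 were not. Whether equally numbered cultures shared a preparation was not tested, and the reported fit had group as its only term. Inhbb and Inhbc were among the dimmer genes and had no value in that setting.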

Other observations

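For several secreted proteins of the acute-phase group, cultures with equal replicate numbers had close signals in both groups, while cultures with different numbers mostly lay further apart. Hamp, which encodes the iron hormone hepcidin, had 9.96, 10.69 and 11.11 on Control replicates 1, 2 and 3 and 9.98, 10.88 and 11.17 on TMAO replicates 1, 2 and 3. Lcn2, a siderophore-binding protein, had 9.57, 10.06 and 11.24 in Control and 9.47, 9.84 and 11.26 under TMAO. Orm1, an acute-phase glycoprotein, had 9.65, 10.69 and 10.81 in Control and 9.68, 10.59 and 10.64 under TMAO. For Orm1 the arrays numbered 2 and 3 were close to each other, and only those numbered 1 stood apart. In each of these 3 genes the arrays numbered 1 were lowest in both groups, as for Angptl4, and the TMAO difference was at most 0.10 in size. Tgfb2, a ligand of the TGF-beta family, had the opposite order, with 9.11, 8.12 and 7.73 in Control and 9.31, 8.48 and 8.07 under TMAO. These genes were chosen after their values were seen. Over all genes, the deviations of equally numbered arrays correlated by 0.13, 0.10 and -0.01.

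The word TGATGCAA, found in the windows of both Inhbe and Fgf21, was in 0.795% of all 33469 windows on either strand. It was counted over the measured genes after the matches of the members had been seen. For the core as first searched, TGATGNAA, 8 of 380 measured genes (2.11%) had a mean at least 1.5-fold higher under TMAO. Of the 12435 measured genes with a window 0.62% did. The 8 include Fgf21, Inhbe, Herpud1, Chac1 and Trib3, which were chosen with this contrast known. The share for TGATGNAA is therefore not independent of that choice, and nothing is read from it. Of 90 measured genes with the narrower word TGATGCAA, 5 (5.56%) had a mean at least 1.5-fold higher. They were Fgf21, Herpud1, Chac1, Inhbe and Yars1, the cytosolic tyrosyl-tRNA synthetase (0.59 ± 0.12 SE). Without the members it was 3 of 88, or 3.41%, namely Herpud1, Chac1 and Yars1. Herpud1 and Chac1 are in the stress list, whose upward direction was known, and their matches had been seen. Only Yars1 lies outside the members and that list, so this share is not independent of the choice of genes. The median difference of the 90 genes was 0.04, against -0.0033 for all genes with a window. This is a description of these arrays and no test was made.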
